A study of Homo sapiens with 6 samples.

Results

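MALAT1, NEAT1, TUG1 and KCNQ1OT1, long noncoding RNAs known for acting in the nucleus, were followed through 6 RNA-seq libraries of HEK293T cells. These 4 genes were taken by symbol, and every row that carries one of the symbols was kept. That gave 4 rows, 1 per gene, of 39618 rows under 23204 symbols. HEK293T is an established line from embryonic kidney that also expresses the large T antigen of simian virus. All 6 groups consist of this line, with its own DDX3X gene. The siRNA libraries came from cells given control siRNA or DDX3X siRNA for 48 h. The plasmid libraries came from cells given 5 µg of plasmid for 32 h and then sorted for GFP. The plasmid carried GFP alone or a fusion of GFP to DDX3X, either wild type or with the change T275M or G302V. DDX3X is a DEAD-box RNA helicase, and both changes are among those found in medulloblastoma. No sort is described for the siRNA cells, so siRNA or plasmid, time and sort cannot be told apart between those libraries. Only its sample label identifies the T275M library, because a figure legend of the study names another mutant beside G302V.

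Each group had 1 library, so no difference could be set against a spread between replicates, and no p-value was computed. Depth, recovered from the steps of the deposited values, ran from 43720000 to 180870000 reads, with the DDX3X siRNA library deepest. DDX3X itself was at 29.3% of its control level in the DDX3X siRNA library. Against its GFP level it was 24.4 times with wild type, 27.6 times with T275M and 16.1 times with G302V. The labels give the cell type as neuronal. Of 15 neuronal markers, 5 reached 1 RPKM (reads divided by row length in kilobases and by library reads in units of 1000000) in every library, led by the neurofilament genes NEFM and NEFL, whereas 8 stayed below 1 RPKM in all 6. The neuronal markers DCX, ELAVL3, ELAVL4 and STMN2 stayed below 0.05 RPKM. Of 10 kidney or epithelial markers, 4 reached 1 RPKM in every library, and PAX8 and KRT19 were below 0.05 RPKM.

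MALAT1 is a long, mostly unspliced RNA found in nuclear speckles, the bodies that store splicing factors. NEAT1 is the RNA scaffold of paraspeckles; its long isoform builds the body, and its short isoform covers only the beginning of the gene and is polyadenylated. TUG1 is a spliced RNA detected in both nucleus and cytoplasm, and KCNQ1OT1 is an imprinted antisense transcript of the KCNQ1 gene that represses neighbouring genes on the chromosome from which it is made. The ends of MALAT1 and of long NEAT1 are not made by the usual cleavage and polyadenylation. RNase P cuts at a tRNA-like structure, and the end left behind is an A-rich run that pairs with upstream U-rich runs in a triple helix.

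These ends, and the ends of the rows in which reads were counted, are shown because they decide which form of each RNA the values below describe. Sequences are from GRCh37, the build of the deposited rows, on the RNA strand and 5′ to 3′, with T for U. In the first pair, capitals mark the U-rich runs TTTCTTTT and TTTTGCTTTT and the A-rich run AAAAAGCAAAA, which were searched on the RNA strand, in this order and within 150 bases. The A-rich run is the last 11 bases of the annotated NEAT1 gene, and the second U-rich run is the start of its reverse complement. The MALAT1 stretch lies at chr11:65273488-65273587 (+), inside the MALAT1 row, and the NEAT1 stretch at chr11:65212912-65213011 (+).
MALAT1 A-rich end: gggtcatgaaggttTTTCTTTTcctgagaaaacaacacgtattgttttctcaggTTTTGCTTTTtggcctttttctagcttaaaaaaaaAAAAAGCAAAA
NEAT1 A-rich end: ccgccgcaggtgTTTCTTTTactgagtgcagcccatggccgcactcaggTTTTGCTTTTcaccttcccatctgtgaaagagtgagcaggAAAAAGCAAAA
MALAT1 after the A-rich end: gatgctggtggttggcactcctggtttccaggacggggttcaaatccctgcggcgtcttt
Both genes held the ordered runs once, and the annotated spans of TUG1 and KCNQ1OT1 held none. Among 62296 genes with transcripts in GENCODE version 44, 2 (0.00321%) held the 3 runs in this order in a transcript, and they were MALAT1 and NEAT1. The runs were chosen to describe these known ends, so finding the 2 genes themselves is no result of the search. The match had to be exact, and the A-rich run and second U-rich run were copied from NEAT1. That no other gene held them therefore cannot show whether similar ends exist elsewhere. The third line is the genome after the MALAT1 A-rich end, at chr11:65273588-65273647 (+), the part from which the tRNA-like piece is cut.

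The MALAT1 row (NR_002819) covers chr11:65265233-65273939 (+) as 1 stretch of 8707 bases. It runs 352 bases beyond the A-rich end. The NEAT1 row (NR_028272) covers chr11:65190269-65194003 (+), which is 3735 bases or 16.4% of the annotated gene. It is the short isoform, and the A-rich end of the long isoform lies 19008 bases after its last base, so the long isoform entered these values only through reads in its first part. The KCNQ1OT1 row (NR_002728) covers chr11:2629558-2721228 (-) as 1 stretch of 91671 bases. The TUG1 row (NR_002323) is a spliced transcript of 7104 bases for which the table lists 1 exon, chr22:31365634-31367765 (+). GENCODE classes TUG1 as protein_coding and the other 3 as lncRNA. The last 60 bases of the rows that are 1 stretch are given next, with AATAAA, the usual polyadenylation hexamer, in capitals.
MALAT1 row end: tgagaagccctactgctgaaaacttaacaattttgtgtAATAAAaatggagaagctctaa
NEAT1 row end: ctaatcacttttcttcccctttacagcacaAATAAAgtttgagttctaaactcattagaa
KCNQ1OT1 row end: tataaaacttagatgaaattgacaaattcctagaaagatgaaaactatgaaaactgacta
AATAAA was searched on the RNA strand and was present at the MALAT1 and NEAT1 row ends, 22 and 30 bases before the last base counted from its first letter. It was not in the last 60 bases of the KCNQ1OT1 row, which stops 11020 bases before the end of the annotated gene. The annotated MALAT1 gene also runs on past its row, by 1605 bases. Of 254413 annotated transcripts, 28.4% held AATAAA in their last 60 bases.

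**Figure D1:**
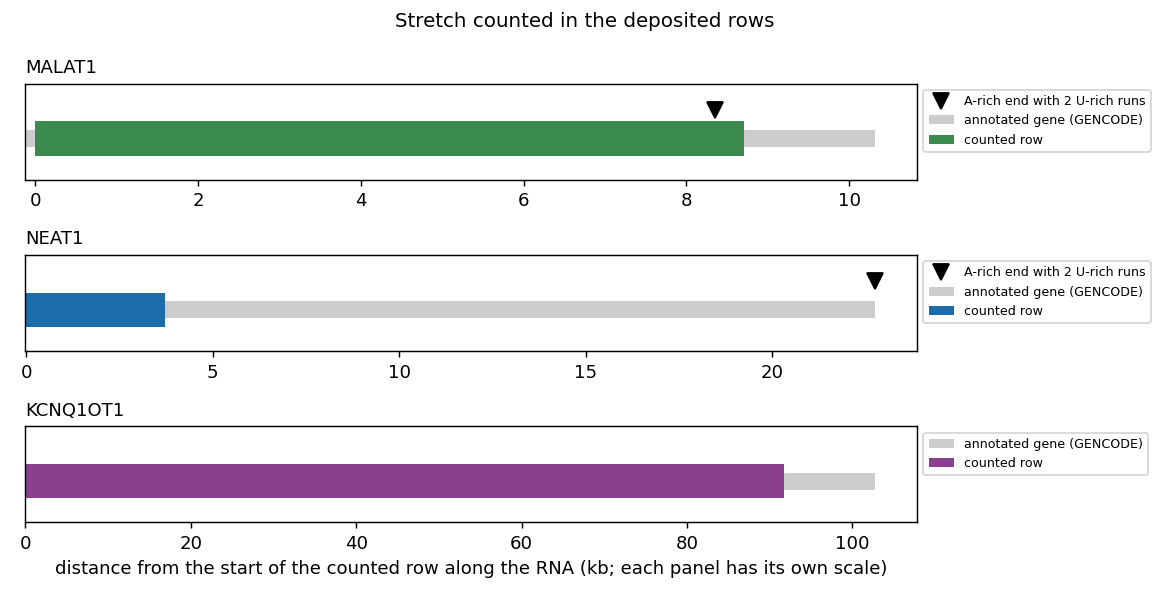
Counted row (colour) against the annotated gene (grey) for MALAT1, NEAT1 and KCNQ1OT1, as distance in kilobases from the start of the row along the RNA; each panel has its own scale. The triangle marks the A-rich end, which lies inside the MALAT1 row and 19008 bases past the end of the NEAT1 row.

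Other genes share parts of these rows on the opposite strand, and the study does not state that reads were counted by strand. The antisense gene TALAM1 covers 82.2% of the MALAT1 row, so MALAT1 and TALAM1 reads cannot be told apart. An exon of 121 bases of KCNQ1, the potassium channel gene that hosts KCNQ1OT1, lies inside the KCNQ1OT1 row at chr11:2683191-2683311. KCNQ1 was at 0.200 to 0.396 RPKM, which corresponds to 1.12 to 4.71 reads from that exon, or 0.351 to 2.45% of the KCNQ1OT1 reads of a library. This share covers the exon only. Reads from unspliced KCNQ1 RNA elsewhere in the row, or from other background, cannot be told apart from KCNQ1OT1 reads.

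Per length, the 4 RNAs had the same order in every library: NEAT1, then TUG1, then MALAT1, then KCNQ1OT1. This is an order of counted reads. If RNA was selected by poly(A), forms without a poly(A) tail were counted less, so it need not be an order of abundance. The NEAT1 level was 35.3 RPKM in the GFP library, 37.4 in wild type, 40.4 in T275M, 33.7 in G302V, 59.9 in control siRNA and 52.6 in DDX3X siRNA. Both siRNA libraries were above all 4 plasmid libraries, and the highest value was 1.78 times the lowest. TUG1 was at 17.8, 19.7, 19.7, 21.1, 24.7 and 27.1 RPKM in the same order of libraries. It too was higher in both siRNA libraries than in any plasmid library, and its range was 1.52-fold. MALAT1 was at 3.88, 3.98, 4.15, 3.77, 3.28 and 4.15 RPKM in that order. Control siRNA was its lowest library and the siRNA and plasmid values overlapped, within a range of 1.27-fold. MALAT1 was above 18.3 to 22.5% of the genes at 1 RPKM or more in a library, TUG1 above 62.1 to 73.0% and NEAT1 above 78.2 to 87.6%. KCNQ1OT1 was at 0.0215, 0.0223, 0.0213, 0.0284, 0.0617 and 0.0808 RPKM. These low values per length rest on 108, 128, 93, 114, 382 and 1340 reads, since the row is long. In the plasmid libraries they lie below the level of 3 reads per kilobase, which is 0.0478 to 0.0686 RPKM there. Again the siRNA libraries were the 2 highest, and the range was 3.79-fold.

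Neighbours in the order of levels were compared by the exact 95% counting interval of their ratio, which covers counting error only. For NEAT1 every step from control siRNA, DDX3X siRNA, T275M, wild type and GFP down to G302V had an interval that left out 1. TUG1 ran from DDX3X siRNA through control siRNA and G302V to T275M, wild type and GFP, and T275M and wild type were not separable at this depth (ratio 1.00, interval 0.973 to 1.04). For MALAT1, only the last step, from G302V to control siRNA, left out 1 (ratio 1.15, interval 1.07 to 1.23). KCNQ1OT1 in GFP, wild type, T275M and G302V gave no step between neighbours whose interval left out 1, while the step from G302V to control siRNA was 2.17-fold (interval 1.76 to 2.70). The proportions of the RNAs moved with these levels. NEAT1 was 8.94 to 9.71 times MALAT1 in the plasmid libraries, 12.7 times with DDX3X siRNA and 18.3 times with control siRNA. Together, MALAT1, NEAT1 and TUG1 took 0.0292 to 0.0428% of the reads of a library.

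**Figure D2:**
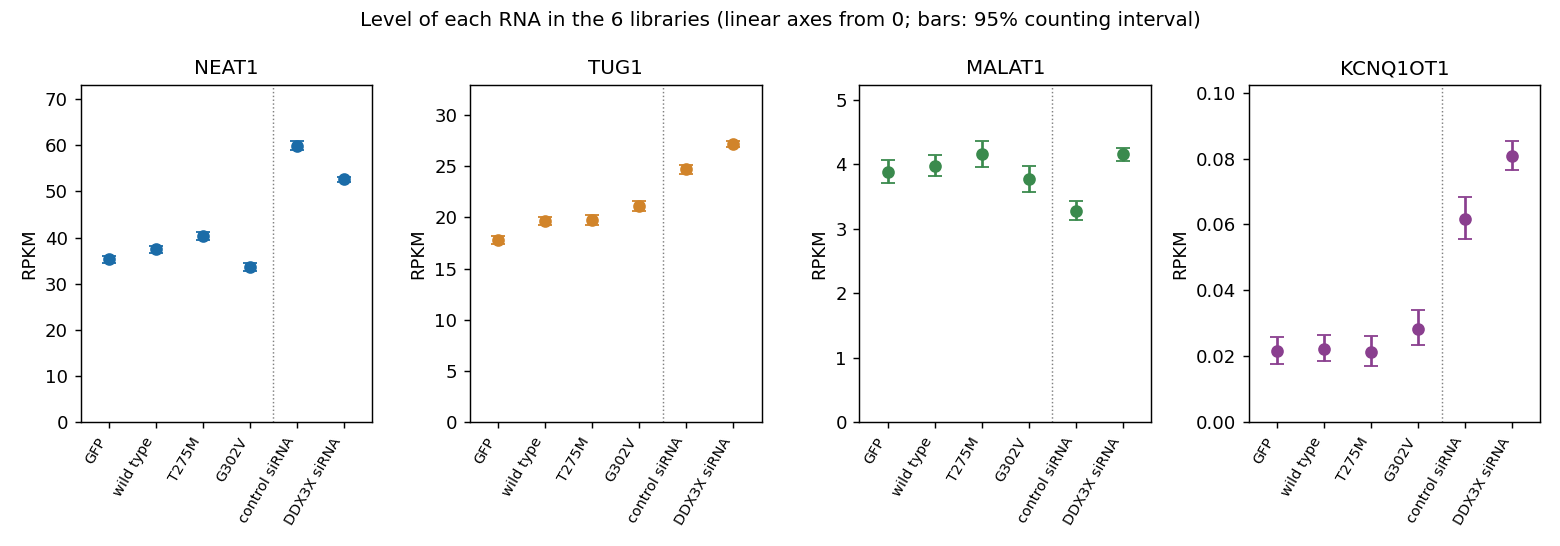
RPKM of NEAT1, TUG1, MALAT1 and KCNQ1OT1 in the 6 libraries, on linear axes that start at 0 and differ between panels; bars are exact 95% counting intervals and the dotted line parts plasmid from siRNA libraries. NEAT1, TUG1 and KCNQ1OT1 are highest in the 2 siRNA libraries, and MALAT1 is lowest with control siRNA, at 3.28 RPKM.

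The knockdown comparison asks whether RNA levels change when DDX3X is depleted. MALAT1 was 1.27 times its control level in the DDX3X siRNA library (counting interval 1.204 to 1.33). Its read count was 6538 against 1926, in a library 2.68 times as deep. NEAT1 was lower, at 0.879 times the control (0.862 to 0.896), and TUG1 was 1.10 times the control (1.08 to 1.12). KCNQ1OT1 was 1.31 times the control (1.17 to 1.47). In bulk RNA, fewer cells of a type and less RNA per cell cannot be told apart. Across genes, differences were taken as log2(RPKM + 1) in the first library minus the second, for genes with at least 1 RPKM and 10 reads in at least 1 of the libraries, and a gene was counted at 2-fold or more. MALAT1, NEAT1 and TUG1 passed this filter in every comparison, and KCNQ1OT1, always below 1 RPKM, in none. None of the 3 that passed was past 2-fold here, where 0.11% of 12694 genes were, and none was past 1.5-fold, where 2% of genes were. On this scale MALAT1 differed by 0.27, NEAT1 by -0.18 and TUG1 by 0.13. The median of all tested genes was -0.02. MALAT1 was above 89.5% of the tested genes, TUG1 above 75.5% and NEAT1 above 21.7%.

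Row length moved with this ratio. Over genes with at least 50 reads in every library, the median plain ratio of DDX3X siRNA to control siRNA, without a pseudocount, was 0.936 for rows under 1000 bases and 1.16 for the 643 rows of 8000 bases or more. Both MALAT1 and KCNQ1OT1 are in the latter class, where 70.1% of rows had a lower ratio than MALAT1 and 75.6% a lower one than KCNQ1OT1. After the class median was taken off, the log2 ratio of MALAT1 was 0.12 and that of KCNQ1OT1 was 0.17. The part of row length in these ratios was not tested.

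The plasmid comparisons ask what wild-type and mutant DDX3X do to RNA levels when added to the endogenous protein. TUG1 was higher than with GFP in all 3 GFP-DDX3X libraries, which share the GFP library as their control. The G302V library had the highest TUG1 of these, 1.19 times GFP (1.15 to 1.23), followed by T275M at 1.11 times (1.07 to 1.15) and wild type at 1.10 times (1.07 to 1.14). NEAT1 was 1.06 times GFP with wild type (1.03 to 1.09) and 1.14 times with T275M (1.11 to 1.18), but 0.954 times with G302V (0.921 to 0.989). For MALAT1 the intervals of wild type and G302V held 1, and that of T275M ended just above it. MALAT1 was 1.02 times GFP with wild type (0.962 to 1.09), 1.07 times with T275M (1.00 to 1.14) and 0.970 times with G302V (0.905 to 1.04). KCNQ1OT1 was 1.04 times GFP with wild type (0.796 to 1.35), 0.991 times with T275M (0.745 to 1.32) and 1.32 times with G302V (1.01 to 1.74). These wide intervals come from 93 to 128 reads per library.

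None of the 3 RNAs that passed the filter was past 2-fold or 1.5-fold against GFP. The shares of all tested genes past 2-fold were 0.248% for wild type, 0.372% for T275M and 0.305% for G302V, and past 1.5-fold they were 2.21, 2.64 and 1.77%. The medians over MALAT1, NEAT1 and TUG1 were 0.08, 0.14 and -0.03 (log2), against 0.05, 0.07 and 0.03 over all tested genes. TUG1 with G302V, at 0.23, was above 83.9% of tested genes. The NEAT1 difference between wild type and GFP was 0.08 and became -0.01 when the libraries were scaled by the median ratio of genes, so its direction depends on the scaling. Under the same scaling TUG1 went from 0.14 to 0.05 for wild type, from 0.14 to 0.06 for T275M and from 0.23 to 0.20 for G302V, and NEAT1 with T275M went from 0.19 to 0.10.

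Long rows were higher with G302V than with GFP. The median plain ratio was 0.916 for rows under 1000 bases and 1.25 for rows of 8000 bases or more. Within the long class only 3.73% of rows had a lower ratio than MALAT1, and with the class median taken off the log2 ratio of MALAT1 was -0.37 and that of TUG1, in the class of 4000 to 8000 bases, was 0.10. KCNQ1OT1, in the long class too, went from a plain log2 ratio of 0.40 to 0.08. With T275M the class median was 1.18 for the longest rows, and taking off the medians put MALAT1 at -0.14 and TUG1 at -0.02, the opposite direction to the plain ratios, and KCNQ1OT1 at -0.25, from -0.01. With wild type the class median was 1.07, and the remaining values were -0.06 for MALAT1, -0.04 for KCNQ1OT1 and 0.05 for TUG1. The part of length in these values was not tested.

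The mutants were also compared with wild type and with each other. DDX3X RNA was at 1906 RPKM with G302V, 2894 with wild type and 3279 with T275M. Mutation and DDX3X level therefore cannot be told apart in any comparison of G302V with wild type or T275M. With T275M, NEAT1 was 1.08 times its wild-type level (1.04 to 1.11), while TUG1 was 1.00 times (0.973 to 1.04), MALAT1 1.04 times (0.980 to 1.11) and KCNQ1OT1 0.955 times (0.726 to 1.26). With G302V, NEAT1 was 0.900 times its wild-type level (0.870 to 0.931), TUG1 was 1.07 times (1.04 to 1.11), MALAT1 was 0.947 times (0.886 to 1.01) and KCNQ1OT1 was 1.27 times (0.984 to 1.66). Set directly against T275M, G302V had lower NEAT1, at 0.835 times (0.806 to 0.865), and lower MALAT1, at 0.907 times (0.845 to 0.973). TUG1 was higher, at 1.07 times (1.03 to 1.11), and so was KCNQ1OT1, at 1.33 times (1.01 to 1.77). None of the 3 RNAs that passed the filter was past 2-fold in these comparisons, where 0.0771, 0.185 and 0.178% of genes were, or past 1.5-fold, where 0.347, 1.76 and 1.2% were. NEAT1 in G302V against T275M, at -0.25 (log2), was above 9.20% of tested genes.

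Row length moved with the mutant comparisons as well. For rows of 8000 bases or more the median plain ratio was 1.10 for T275M against wild type, 1.17 for G302V against wild type and 1.07 for G302V against T275M. With the class medians taken off, MALAT1 was at -0.07, -0.30 and -0.23 (log2) in these 3 comparisons, from plain values of 0.06, -0.08 and -0.14. KCNQ1OT1 was at -0.20, 0.12 and 0.32, from -0.07, 0.35 and 0.42. TUG1 was at -0.06, 0.06 and 0.11, and NEAT1 at 0.11, -0.10 and -0.21. Against wild type, MALAT1 and TUG1 with T275M thus changed direction, and their counting intervals held 1 before. The part of length was not tested.

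**Figure D3:**
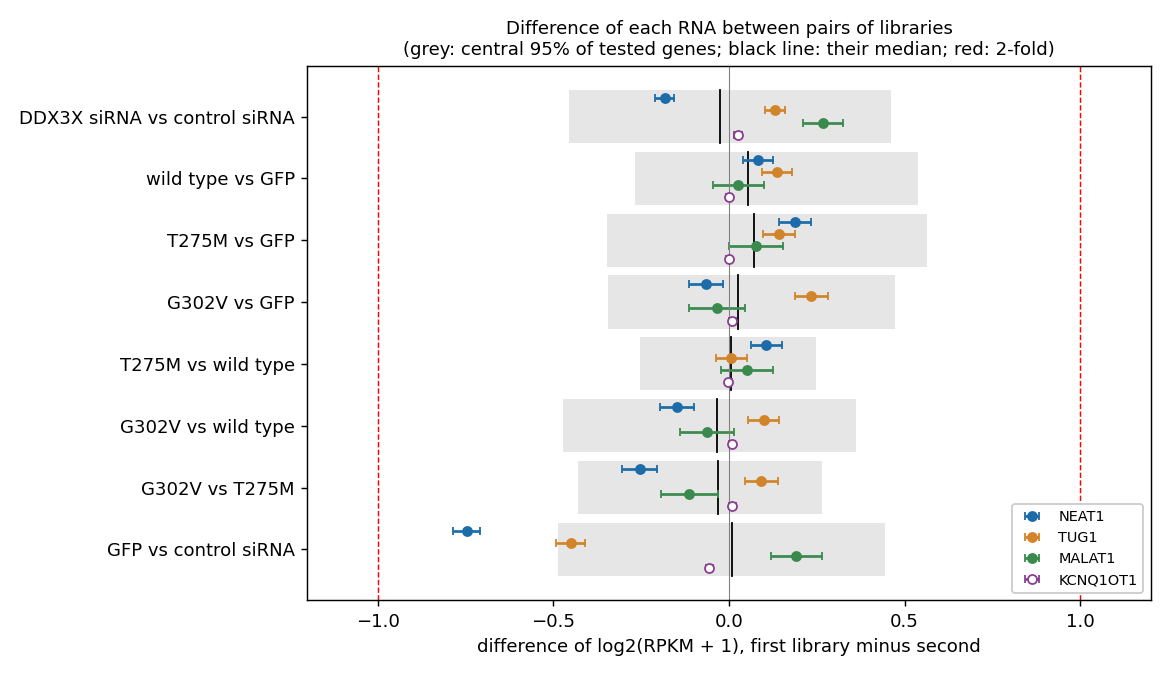
Difference of log2(RPKM + 1) for each RNA in the 8 pairs of libraries, first minus second, with 95% counting intervals; grey bars span the central 95% of tested genes, black lines their median, red lines 2-fold, and open circles a gene that did not pass the filter. NEAT1 in GFP against control siRNA, at -0.75, lies outside the grey bar, and no point reaches 2-fold.

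For NEAT1, TUG1 and KCNQ1OT1, the largest of the 8 differences was between the GFP and control siRNA libraries, neither of which carries a DDX3X construct or DDX3X siRNA. NEAT1 with GFP was 0.589 times its control siRNA level (0.573 to 0.606), a difference of -0.75 (log2) that only 0.306% of tested genes fell below. TUG1 was 0.721 times (0.700 to 0.743), or -0.45, with 3.40% of tested genes below it. MALAT1 went the other way, at 1.19 times (1.11 to 1.26). None of these 3 was past 2-fold, where 0.503% of 12730 genes were. NEAT1 alone was past 1.5-fold, where 2.33% of genes were in either direction and 1.11% in the direction of NEAT1. KCNQ1OT1 was 0.348 times its control siRNA level (0.278 to 0.432) as a plain ratio, and 0.0505% of 13859 genes with at least 100 reads in the pair had a lower one. Without a pseudocount it was therefore past 2-fold, in the direction that 0.419% of those genes took, while log2(RPKM + 1) put it at -0.06, since that scale flattens values far below 1 RPKM.

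All 4 plasmid libraries stood apart from both siRNA libraries for NEAT1, TUG1 and KCNQ1OT1, and MALAT1 overlapped. Of 13137 genes at 1 RPKM or more in some library, 14.5% likewise had both siRNA libraries above all plasmid libraries, and 37.1% did not overlap in either direction. The size of the gap was measured as the lower siRNA value over the highest plasmid value. It was 1.17 for TUG1, 1.30 for NEAT1 and 2.17 for KCNQ1OT1. Over 13359 genes with at least 50 reads in every library, 561 had a larger gap than TUG1 and 115 a larger gap than NEAT1. No gene had a larger one than KCNQ1OT1, and the next were LOC644656 at 2.06 and KIAA0754 at 1.76. KCNQ1OT1 is in this set only because its long row collects 50 reads at a low level. In the plasmid libraries that level is below 3 reads per kilobase. A gap of 1.2 or more was found for 3.23% of those genes. Their rows had a median length of 3642 bases, against 2812 for all.

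Length moved with this contrast as well. The median plain ratio of GFP to control siRNA was 1.03 for rows under 1000 bases and 0.808 for rows of 8000 bases or more. In the long class 1 of 643 rows had a lower ratio than KCNQ1OT1, while 95.8% had a lower one than MALAT1. NEAT1 was compared with 5282 rows of 2000 to 4000 bases, of which 38 had a lower ratio. TUG1 had 6.63% of 3365 rows below it in its class. Taking off the class medians left log2 ratios of -1.21 for KCNQ1OT1, -0.79 for NEAT1, -0.42 for TUG1 and 0.55 for MALAT1.

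**Figure D4:**
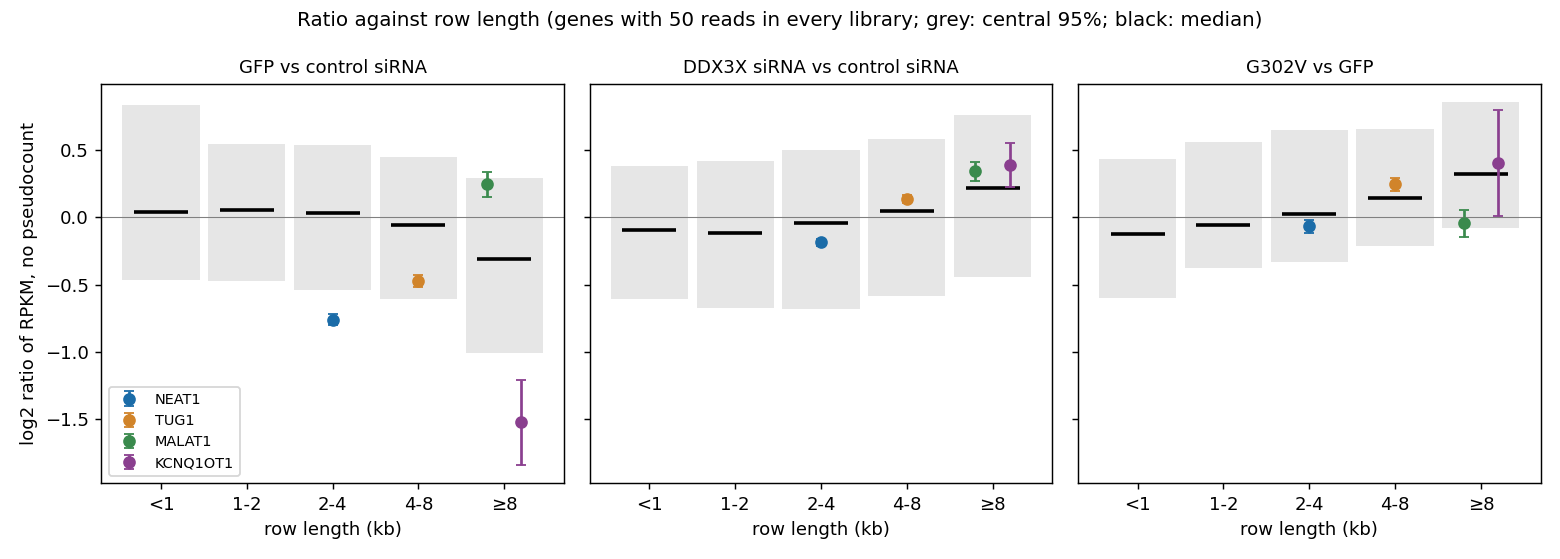
Plain log2 ratio of RPKM by class of row length in kilobases for 3 pairs of libraries; grey bars span the central 95% of genes with 50 reads in every library, black marks are class medians, and coloured points are the 4 RNAs with 95% counting intervals. NEAT1 and KCNQ1OT1 lie below the grey bars of their classes in GFP against control siRNA.

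For each RNA, the genes with the most similar course over the 6 libraries were found among 6698 others with a mean of at least 10 RPKM and 200 bases, by the root mean square difference of centred log2(RPKM + 1). Genes picked this way share the course of the RNA by selection, so a shared highest or lowest library is no separate result. MALAT1 came closest to R3HDM1 (0.0312), NAF1 (0.0314) and GCFC2 (0.0320), and each of these was lowest with control siRNA, as MALAT1 was. NAF1 is a factor for assembly of box H/ACA ribonucleoproteins. TUG1 came closest to CREB3L2 (0.0191), SCAMP1 (0.0255) and UGCG (0.0328). CREB3L2, a transcription factor anchored in the endoplasmic reticulum membrane, ran from 12.1 RPKM with GFP to 17.0 with control siRNA and 19.4 with DDX3X siRNA. NEAT1 had no neighbour that close in absolute distance. Its own course also varied most on this scale, with a root mean square of 0.300, against 0.199 for TUG1 and 0.0916 for MALAT1. CENPE (0.0951), a kinesin of the kinetochore, PTPN13 (0.0951) and CALCB (0.0966) were nearest, and all 3 had their highest value with control siRNA. For KCNQ1OT1 the scale is almost flat, and EXOC2 (0.0171), PEX5 (0.0188) and PINK1 (0.0199) were named by it. On log2 RPKM without a pseudocount, a choice made after the values were seen, the nearest were UGGT1 (0.337), CPD (0.372) and NOTCH2 (0.374). UGGT1, a folding sensor for glycoproteins, was at 7.96 to 10.6 RPKM in the plasmid libraries, 14.6 with control siRNA and 19.3 with DDX3X siRNA.

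Genes that work with these RNAs were described from lists. Of 28 paraspeckle protein genes in the table, 26 passed the filter, and none was past 2-fold or 1.5-fold in any of the 8 comparisons. The list median was -0.17 (log2) with DDX3X siRNA, with 20 of 26 below 0, where the median of all genes was -0.02. The share of all genes below 0 was not computed. Against GFP the list medians were -0.02 for wild type, -0.07 for T275M and -0.13 for G302V, where the medians of all tested genes were 0.05, 0.07 and 0.03. Median-ratio scaling, which applies a common factor to all genes of a library, put the list medians at -0.10 with DDX3X siRNA and at -0.11, -0.16 and -0.17 against GFP. CIRBP, a cold-inducible RNA-binding protein, differed most among list members of at least 10 RPKM with DDX3X siRNA, from 89.7 to 64.4 RPKM (-0.47). RBM3, its relative, was at 79.0 RPKM with GFP and 55.1 with T275M (-0.51). PSPC1, a core paraspeckle protein, was at 50.9 RPKM with GFP and 39.5 with G302V (-0.36). RBM4B was at 11.7 RPKM with GFP and 15.0 with wild type (0.34).

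Of 24 nuclear speckle genes, all tested, CLK1 was past 2-fold in 3 of the 8 comparisons. CLK1 and CLK4 were past 1.5-fold in 4, namely wild type and T275M against GFP and G302V against wild type and T275M. The shares of all genes past 1.5-fold in these were 2.21, 2.64, 1.76 and 1.2%. CLK1, a kinase of SR splicing factors, was at 14.2 RPKM in the GFP library, 30.9 in wild type, 29.7 in T275M and 14.9 in G302V. It was 1.07 (log2) above GFP with wild type and 1.01 above with T275M, and with G302V it was 1.00 below wild type. CLK4, of the same kinase family, was at 6.92, 13.5, 13.4 and 7.76 RPKM in these libraries, which is 0.87 and 0.86 above GFP, 0.73 below wild type and 0.72 below T275M. The list medians against GFP were 0.01, -0.07 and -0.13 for wild type, T275M and G302V, and -0.12 with DDX3X siRNA against control siRNA. The medians of all tested genes were 0.05, 0.07, 0.03 and -0.02 in these comparisons. Median-ratio scaling, which applies a common factor to all genes of a library, put the list medians at -0.08, -0.16, -0.17 and -0.05.

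The 26 genes of 3-prime end maturation and nuclear RNA decay had none past 2-fold or 1.5-fold. PAPD7, a noncanonical poly(A) polymerase, differed most in 2 comparisons, from 11.4 to 15.0 RPKM with DDX3X siRNA (0.37) and from 10.7 with GFP to 14.3 with G302V (0.38). RPP25, a subunit of RNase P and RNase MRP, was at 28.7 RPKM with GFP and 21.4 with T275M (-0.40). ZCCHC8, a subunit of the nuclear exosome targeting complex, was at 12.9 RPKM with GFP and 16.1 with wild type (0.30). The list median was -0.15 with DDX3X siRNA and -0.04, -0.11 and -0.13 against GFP for wild type, T275M and G302V. In the same comparisons the medians of all tested genes were -0.02, 0.05, 0.07 and 0.03. With median-ratio scaling, which applies a common factor to all genes of a library, the list medians were -0.08, -0.13, -0.20 and -0.17.

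Of 28 genes of Polycomb repressive complex 2 and the KCNQ1 imprinted domain, 20 passed the filter and none was past 2-fold. CARS, the cysteinyl-tRNA synthetase gene of that domain, went from 34.5 RPKM with control siRNA to 18.8 with DDX3X siRNA (-0.85), past 1.5-fold. PHF1, a Polycomb-like protein, was at 10.9 RPKM in the GFP library, 14.6 in wild type, 15.7 in T275M and 17.2 in G302V. Its difference from GFP was 0.39, 0.49 and 0.61, the last past 1.5-fold. The list median was -0.14 with DDX3X siRNA and 0.05, 0.05 and -0.01 against GFP for wild type, T275M and G302V. The medians of all tested genes were -0.02, 0.05, 0.07 and 0.03 in these comparisons. Median-ratio scaling, which applies a common factor to all genes of a library, put the list medians at -0.08, -0.03, -0.02 and -0.05.

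Of 24 genes that neighbour MALAT1, NEAT1 or TUG1, 21 were tested in GFP against control siRNA, where NEAT1 was at -0.75 and TUG1 at -0.45. The list median was 0.17, where the median of all tested genes was 0.01. The share of all genes above 0 was not computed. Of the 21 neighbours, 19 were above 0. The other 2 were SELM, at 31.9 RPKM with GFP and 42.9 with control siRNA (-0.42), and PIK3IP1, at 1.78 and 2.08 RPKM (-0.14). None was past 1.5-fold in any comparison. POLA2, a subunit of DNA polymerase alpha, was at 43.98 RPKM with control siRNA and 32.5 with DDX3X siRNA (-0.43). SSSCA1 was at 67.1 RPKM with GFP, 49.4 with T275M (-0.44) and 49.6 with G302V (-0.43). SMTN, the smoothelin gene, was at 9.78 RPKM with GFP and 12.6 with wild type (0.34).

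Of 43 other long noncoding RNAs in the table, 31 or 32 passed the filter per comparison, and none was past 2-fold. LINC00467 was past 1.5-fold with DDX3X siRNA, at 5.65 RPKM with control siRNA and 3.34 with DDX3X siRNA (-0.61), and no other was in any comparison. With DDX3X siRNA, 21 of 31 were below 0, while MALAT1 and TUG1 were above. The share of all genes below 0 was not computed, and their median was itself below 0. The list median was -0.08 (-0.03 with median-ratio scaling), where the median of all tested genes was -0.02. In GFP against control siRNA the list median was -0.01 and the lowest list member was at -0.49, so none reached the NEAT1 value. Among those of at least 10 RPKM, HOXA11-AS1, the antisense RNA of HOXA11, differed most with DDX3X siRNA and was at 15.6 RPKM with control siRNA and 10.6 with DDX3X siRNA (-0.51). EPB41L4A-AS1 was at 13.9 RPKM with GFP and 19.6 with wild type (0.47). ZNFX1-AS1, a snoRNA host also called ZFAS1, was at 65.7 RPKM with GFP and 86.9 with T275M (0.40). DLEU1 was at 15.3 RPKM with GFP and 11.3 with G302V (-0.41).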

How the data were processed

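Total RNA from HEK293T cells was made into 6 libraries with TruSeq RNA kits. Beyond the name of the kit, poly(A) selection and strand were not stated in the sources used here. How far forms without a poly(A) tail were captured was therefore not tested. The authors aligned trimmed reads with BWA 0.5.5 to hg19 (NCBI Build 37), RefSeq, exon pairs and AceView, removed duplicates, counted reads and deposited RPKM with 4 decimals, 1 row per RefSeq accession. Isoforms of a gene share reads, and 7899 symbols have several rows, of which the one with the highest mean was used. In each library, the product of RPKM and row length took only multiples of a fixed step (100% of the low rows checked, within 0.1 read), which gave the depth and the reads behind each row.

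Intervals are exact Poisson for levels and Clopper-Pearson for ratios of read rates, at 95%. They cover counting error only, since the reads carry no molecular identifiers and need not come from separate molecules. The pseudocount was 1 RPKM. Genes named were the 4 RNAs, DDX3X, in each list every gene past 2-fold with 10 RPKM or else the largest difference with DDX3X siRNA and against GFP, and 3 nearest courses. Genes outside it (marker genes, the antisense and host genes, LOC644656, KIAA0754, SELM, PIK3IP1, CLK4 and LINC00467) were named after their values were seen. The members and lists were chosen with earlier results of these data known. XIST and TSIX were left out of searches. Of 51 other long noncoding RNAs listed, 14 were matched by RefSeq accession and 8 were not matched or shared a row. The scripts were tested on simulated data (Python 3.11.15, pandas 2.3.3, numpy 2.4.6, scipy 1.17.1). Alternatives are given in the closing section.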

Additional observations from a re-analysis of the deposited data

How the results depend on the processing

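Under the 6 alternatives listed at the start (pseudocounts of 0.1 and 10, median-ratio scaling, DDX3X reads left out of the totals, CPM in place of RPKM, summed rows), 188 of 192 log2 ratios of the 4 RNAs kept their direction. The pseudocounts and CPM cannot change a direction, nor can summed rows, since each RNA has 1 row. Of the alternatives that can, median-ratio scaling kept 29 of 32 directions and leaving out DDX3X reads kept 31 of 32. Among ratios whose counting interval left out 0, 1 reversed: NEAT1 in wild type against GFP was -0.00677 under median-ratio scaling. Removing the median of the class of row length, added after the data were seen, reversed it too (-0.00137), with MALAT1 (-0.143) and TUG1 (-0.0229) in T275M against GFP. No RNA was past 2-fold except KCNQ1OT1 in GFP against control siRNA, which gave a count of 1 with CPM, with no pseudocount and with the length-class median removed; the last 2 were added. With a pseudocount of 0.1, genes past 2-fold numbered 69 for DDX3X siRNA, 136, 149 and 100 for wild type, T275M and G302V against GFP, 25 and 112 for T275M and G302V against wild type, 83 for G302V against T275M, and 120 for GFP against control siRNA. T275M against wild type gave 17 with no filter beyond 1 read. The cause was not tested. Median-ratio scaling moved every gene by less than 0.1 (log2). No paired analysis was possible because each group has 1 library, and for the same reason no library could be left out. Depth limits KCNQ1OT1 most, with 93 reads in its lowest library.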

Other observations

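MALAT1, NEAT1 and KCNQ1OT1 are noncoding rows of 1 unspliced stretch. There were 42 other such rows of at least 3000 bases with at least 50 reads in every library, a set chosen after the data were seen. Their plain ratio of GFP to control siRNA had a median of 0.966 and ran from 0.540 to 1.41, so KCNQ1OT1, at 0.348, was below all 42. The set was not matched for length, and its longest row had 12267 bases, against 91671 for KCNQ1OT1. Over all genes with 50 reads in every library, the median of this ratio was 0.808 for rows of 8000 bases or more. Of the 42, 11 had both siRNA libraries above all plasmid libraries, and the largest gap among them was 1.71, against 2.17 for KCNQ1OT1. With DDX3X siRNA their median ratio to control siRNA was 1.11, and 37 of 42 were below MALAT1, at 1.27.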
